A study of Mus musculus with 15 samples.

Results

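The natriuretic peptide system of the pressure-overloaded mouse heart was described over 8 genes: the peptide genes Nppa, Nppb and Nppc, the protease genes Corin and Furin, and the receptor genes Npr1, Npr2 and Npr3. They were taken by symbol from a table of 54532 genes, and all 8 were found. The table holds 15 heart libraries from C57BL/6 wild-type mice, 5 in each of 3 groups. All mice were operated on at 8 to 10 weeks of age by transverse aortic constriction, TAC, in which the aorta is tied down to raise the pressure the heart pumps against, so the table holds no unoperated heart. From 4 weeks after surgery, randomised groups of 15 mice took physiological saline, donepezil at 5 mg/kg/day or encenicline (EVP-6124) at 2 mg/kg/day with their drinking water. The libraries carry the label TAC 8Weeks. Donepezil inhibits acetylcholinesterase, and encenicline is an agonist of the alpha7 nicotinic acetylcholine receptor. The series asks which of these drugs does more against heart failure. Groups follow the titles of the libraries. The treatment field of 2 libraries, donepezil 1 and encenicline 1, names another group (saline and donepezil).

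Atrial natriuretic peptide (Nppa) and brain natriuretic peptide (Nppb) are made by heart muscle cells, Nppa mainly in the atria, and both genes are switched on in ventricles under load. Corin cleaves the precursor of the atrial peptide at the cell surface, and furin cleaves the precursor of the brain peptide inside the cell. Both peptides act on Npr1, a receptor whose inner part makes cyclic GMP. Npr2 is the corresponding receptor for C-type natriuretic peptide (Nppc), and Npr3 removes all of them from the circulation.

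Nppb and Nppa are neighbours on mouse chromosome 4, on the plus strand of GRCm38, with 13.5 kb between the end of Nppb and the start of Nppa. Their start regions are shown because both genes differed widely from library to library while most genes around them varied little. The windows are RefSeq's on GRCm38.p6, from 250 bases before to 50 after the gene start. Capitals mark GATA (the core bound by GATA factors), CACTT (the core bound by NKX2-5), CATTCC (M-CAT, bound by TEAD factors) and TGTTCT (a core of the glucocorticoid receptor's element) on either strand, none of which overlap here.
Nppa, chr4:148000472-148000771, plus strand: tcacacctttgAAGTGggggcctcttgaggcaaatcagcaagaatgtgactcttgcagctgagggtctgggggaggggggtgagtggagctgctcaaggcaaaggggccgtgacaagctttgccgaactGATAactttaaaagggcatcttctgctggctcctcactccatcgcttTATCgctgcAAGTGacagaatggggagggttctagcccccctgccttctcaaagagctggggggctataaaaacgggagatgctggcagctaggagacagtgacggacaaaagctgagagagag
Nppb, chr4:147985650-147985949, plus strand: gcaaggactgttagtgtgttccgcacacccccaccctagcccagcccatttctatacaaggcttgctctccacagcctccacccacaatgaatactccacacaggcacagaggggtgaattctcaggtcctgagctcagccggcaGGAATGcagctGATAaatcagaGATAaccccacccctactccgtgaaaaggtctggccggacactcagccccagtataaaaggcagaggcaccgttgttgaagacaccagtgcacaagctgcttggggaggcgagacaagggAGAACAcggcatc
The Nppa window holds 2 GATA and 2 CACTT matches, and the Nppb window holds 2 GATA matches, 1 CATTCC and 1 TGTTCT. Neither holds TGANTCA (AP-1) or the CArG box of serum response factor. Of 32851 promoter windows of that length, 57.9% hold GATA, 46.4% CACTT, 14.7% CATTCC, 19.0% TGTTCT, 7.81% TGANTCA and 1.63% a CArG box. The start of Nppa is the same in RefSeq and in the deposited table, whereas the RefSeq start of Nppb lies 112 bases away from that of the table. All 8 genes had a window, and Corin, Npr1 and Nppc had none of the 6 motifs in theirs.

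The values are FPKM, fragments scaled by gene length and library size. The whole reads behind them summed to 14496147 to 17176086 per library. Heart muscle transcripts were abundant in every library, Myh6 at 1816 FPKM or more and Tnnt2 at 486 FPKM or more. Of the 14 atrial markers, Sln was listed at 0 in 9 of the 15 libraries with a highest value of 0.0979 FPKM, Bmp10 at 0 in 13 with at most 0.0257, and Myl7 reached at most 1.78 FPKM. Others were higher, Pam at 38.7 to 94.9 FPKM and Dkk3 at 0.65 to 14.0 FPKM. The ventricular genes Myl2 and Myl3 stood at 1629 to 3893 and 1875 to 3793 FPKM. The library donepezil 4 stood apart, with the highest summed level of the 6 fibroblast markers (510.1 FPKM, next 276) and of the 6 macrophage markers (182 FPKM, next 139.9), of the 14 atrial markers (149 FPKM, next 133), the lowest of the 7 ventricular markers (3586 FPKM) and the lowest share of mitochondrially encoded reads (17.4%, against up to 27.0%). In donepezil 4, Col1a1 gave 229 FPKM of the fibroblast sum, with 42.8 FPKM in saline 3. The fibroblast markers Pdgfra, Dcn, Lum and Dpt were also highest there, while Tcf21 (5.30 FPKM) lay below saline 3 (5.36). The atrial sum of donepezil 4 was mostly Pam (94.9 FPKM). Dkk3, Myl4 and Bmp10 were also highest there, while Kcnj3 (2.50 FPKM) and Kcnj5 (4.18 FPKM) were at their lowest and Sln was listed at 0. In a tissue sample, fewer cells of a type and less RNA per cell cannot be told apart. The labels number the libraries 1 to 5 in each group without stating whether each is a single mouse, so p-values measure the spread between these libraries.

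Nppa was the most uneven of the 7 genes tested, running from 29.2 to 857 FPKM over the 15 libraries. In the saline libraries 1 to 5 it stood at 124, 41.6, 287, 104 and 36.2 FPKM. In the donepezil libraries it stood at 104, 92.5, 93.2, 857 and 112 FPKM, and in the encenicline libraries at 29.2, 44.9, 79.3, 119 and 56.97 FPKM. The groups overlapped in each comparison, and donepezil 4 was above every other library, the next being saline 3. The saline mean was 119 ± 102 FPKM, the donepezil mean 252 ± 339 and the encenicline mean 66.0 ± 35.0 (SD over 5 libraries in each). The log2 fold change was 0.78 for donepezil against saline (95% confidence interval -0.59 to 2.16; Benjamini-Hochberg adjusted p = 0.617 in limma), and 0.17 without donepezil 4. For encenicline against saline it was -0.59 (95% confidence interval -1.97 to 0.79; Benjamini-Hochberg adjusted p = 0.783 in limma), and -0.17 without saline 3. For encenicline against donepezil it was -1.38 (95% confidence interval -2.76 to 0.0020; Benjamini-Hochberg adjusted p = 0.334 in limma), and -0.76 without donepezil 4. An antisense gene, Gm13054, overlaps Nppa and held 0 to 10 reads per library against 339 to 12864 for Nppa. Since no strand setting of the counting is given, reads of a gene and its antisense partner cannot be told apart.

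Nppb was the more abundant of both cardiac peptide transcripts in 13 of the 15 libraries. It stood at 127, 94.3, 512, 335 and 183 FPKM in the saline libraries 1 to 5, at 209, 23.8, 131, 477 and 171 FPKM with donepezil, and at 127, 125, 185, 369 and 230.0 FPKM with encenicline. The lowest and the second highest of all libraries, donepezil 2 and donepezil 4, belong to the same group, and all groups overlapped. The saline mean was 250.2 ± 173 FPKM, the donepezil mean 203 ± 169 and the encenicline mean 207 ± 100.5 (SD over 5 libraries in each). The log2 fold changes were -0.56 for donepezil against saline (95% confidence interval -1.92 to 0.81), -0.12 for encenicline against saline (-1.48 to 1.24) and 0.44 for encenicline against donepezil (-0.93 to 1.802), with limma and Benjamini-Hochberg adjusted p of 0.745, 0.963 and 0.775. Without donepezil 2 the first was 0.077 and the third -0.20, and without saline 3 the second was 0.21. As folds, these intervals run from 0.264 to 1.75, from 0.358 to 2.37 and from 0.527 to 3.49.

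The balance of the 2 cardiac peptide transcripts differed between libraries more than either group mean shows. The ratio of Nppb to Nppa FPKM was 1.02 to 5.05 in the saline libraries with a median of 2.27. It was 0.257 to 2.02 with donepezil (median 1.41) and 2.34 to 4.33 with encenicline (median 3.09). By title, every encenicline library lay above every donepezil library in this ratio, a quantity chosen after its values were seen and given without a test. By the treatment field, which names encenicline 1 (ratio 4.33) as donepezil, the donepezil range was 0.257 to 4.33 and overlapped that of the 4 encenicline libraries (2.34 to 4.04). Both saline ranges overlapped those of the drugs. The low ratios of the donepezil group came from different sides, since donepezil 4 (0.557) was high in both peptides and donepezil 2 (0.257) was low in Nppb.

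**Figure D1:**
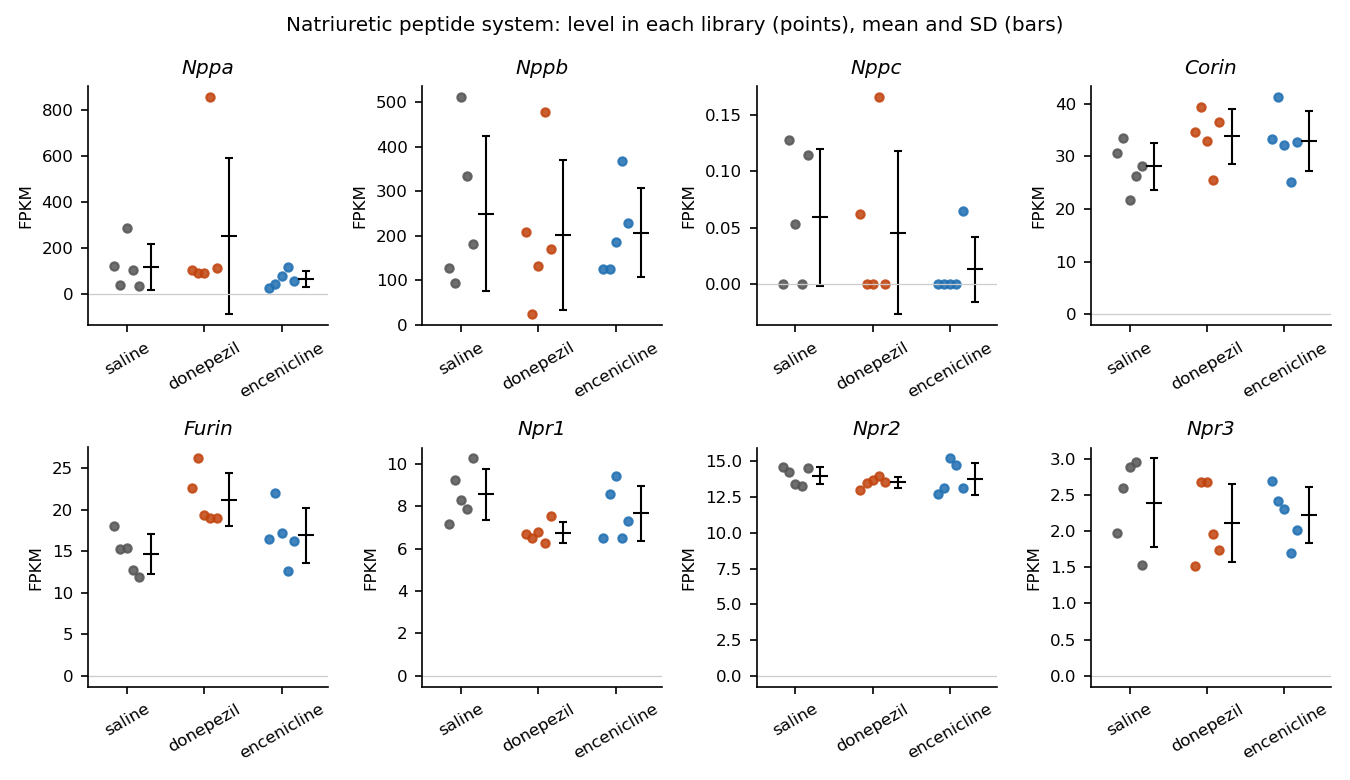
Level in FPKM of each of the 8 genes (vertical axes, linear) in the 5 libraries of each group, as points, with the mean and SD beside them. Nppa and Nppb scatter widely within each group, donepezil 4 stands at 857 FPKM of Nppa, and Npr2 lies between 12.7 and 15.2 FPKM in all 15 libraries.

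Nppc, the gene of the C-type peptide, was at the edge of detection. It had 10 reads over the 15 libraries, 0 reads in 9 of them and at most 3 in a library, and its highest value was 0.166 FPKM. It did not reach the limit for testing (0.5 FPKM in at least 5 libraries), so 7 of the 8 genes were tested.

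Of the processing enzymes, Corin stood at 30.7, 33.5, 21.6, 26.3 and 28.2 FPKM in the saline libraries, at 34.6, 39.4, 32.9, 25.5 and 36.5 FPKM with donepezil and at 33.3, 41.3, 32.1, 25.2 and 32.8 FPKM with encenicline. The groups overlapped. The log2 fold change was 0.26 for donepezil against saline (95% confidence interval -0.04 to 0.56), 0.22 for encenicline against saline (-0.08 to 0.53) and -0.04 for encenicline against donepezil (-0.34 to 0.26), with limma and Benjamini-Hochberg adjusted p of 0.393, 0.637 and 0.924.

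Furin was the gene of the system closest to the threshold. It stood at 18.04, 15.3, 15.3, 12.7 and 11.9 FPKM in the saline libraries, at 22.6, 26.1, 19.3, 18.9 and 19.0 FPKM with donepezil and at 16.5, 22.0, 17.2, 12.7 and 16.3 FPKM with encenicline. All 5 donepezil libraries lay above all 5 saline libraries, by a margin of 18.9 against 18.04 FPKM at the closest, while the encenicline libraries overlapped both. The donepezil mean was 21.2 ± 3.18 FPKM and the saline mean 14.7 ± 2.42 (SD, n = 5 each), a log2 fold change of 0.52 (SE 0.14; 95% confidence interval 0.22 to 0.82; Benjamini-Hochberg adjusted p = 0.0675 in limma), which did not pass. It passed without saline 1 (log2 0.60, limma with Benjamini-Hochberg adjusted p = 0.0357), without encenicline 4 (log2 0.52, adjusted p = 0.0485) and with library weights and robust variances together (log2 0.52, adjusted p = 0.0253), and over the other single libraries left out the adjusted p in limma reached 0.164. With donepezil 1 and encenicline 1 left out, the log2 fold change was 0.49 (limma with Benjamini-Hochberg adjusted p = 0.166), and with groups by the treatment field it was 0.33 (adjusted p = 0.551). Encenicline against saline gave 0.19 (adjusted p = 0.671) and encenicline against donepezil -0.33 (adjusted p = 0.284) by limma with Benjamini-Hochberg adjustment. These comparisons share their groups, so they are not separate evidence. The Furin start region of RefSeq nearest to the table's start held 1 GATA and 5 CACTT matches and no TGTTCT.

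The receptors varied far less than the peptides. Npr1, the receptor of both cardiac peptides, stood at 7.17, 9.25, 8.31, 7.88 and 10.3 FPKM with saline, at 6.68, 6.49, 6.77, 6.27 and 7.55 FPKM with donepezil and at 6.52, 8.56, 9.43, 6.50 and 7.29 FPKM with encenicline. The donepezil libraries filled the lower end, and donepezil 5 overlapped saline 1. The log2 fold change of donepezil against saline was -0.32 (SE 0.11; 95% confidence interval -0.55 to -0.08; Benjamini-Hochberg adjusted p = 0.154 in limma). For encenicline against saline it was -0.16 (95% confidence interval -0.39 to 0.08) and for encenicline against donepezil 0.16 (-0.07 to 0.39), with limma and Benjamini-Hochberg adjusted p of 0.657 and 0.511.

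Npr2 was the steadiest gene of the system, with means of 14.0 ± 0.624 FPKM (saline), 13.5 ± 0.371 (donepezil) and 13.8 ± 1.11 (encenicline), each with the SD over 5 libraries. Its log2 fold changes were -0.05, -0.03 and 0.02 in the order donepezil against saline, encenicline against saline and encenicline against donepezil, and the widest 95% confidence interval bound was -0.18. The sign of the last one turned under 3 other scalings and with voom on recovered reads. An antisense gene, Gm12473, overlaps Npr2 and held 17 to 100 reads per library, against 797 to 1167 for Npr2. Npr3, the clearance receptor, ran from 1.53 to 2.96 FPKM with saline, 1.51 to 2.68 with donepezil and 1.70 to 2.69 with encenicline, with log2 fold changes of -0.14, -0.07 and 0.07 in the same order (limma with Benjamini-Hochberg adjusted p of 0.750, 0.909 and 0.865).

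In all, 0 of the 7 genes tested rose and 0 fell in each of the 3 comparisons by limma with Benjamini-Hochberg adjustment over 13396 genes. Of all genes tested, 2.12% passed in donepezil against saline (1.18% higher and 0.941% lower), 0% in encenicline against saline and 0.933% in encenicline against donepezil (0.44% higher and 0.493% lower). At an unadjusted p under 0.05, 2 of 7 differed in donepezil against saline (Furin and Npr1), where 16.1% of all genes did. In encenicline against saline 0 did, where 9.22% of all genes did, and in encenicline against donepezil 1 did (Furin), where 15% of all genes did. Voom on the recovered reads called 0 of the 7 in each comparison. The groups did not overlap for 1 of 7 genes in donepezil against saline, namely Furin, where 3.9% of all genes did not overlap (2.11% higher and 1.79% lower). They did not overlap for 0 of 7 in encenicline against saline, where 1.69% of all genes did not (0.963% higher and 0.732% lower). In encenicline against donepezil it was also 0 of 7, where 4.07% of all genes did not (2% higher and 2.07% lower). The median log2 fold change of the 7 was -0.05, -0.07 and 0.02, and that of all genes tested -0.0016, 0.0043 and 0.0034.

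**Figure D2:**
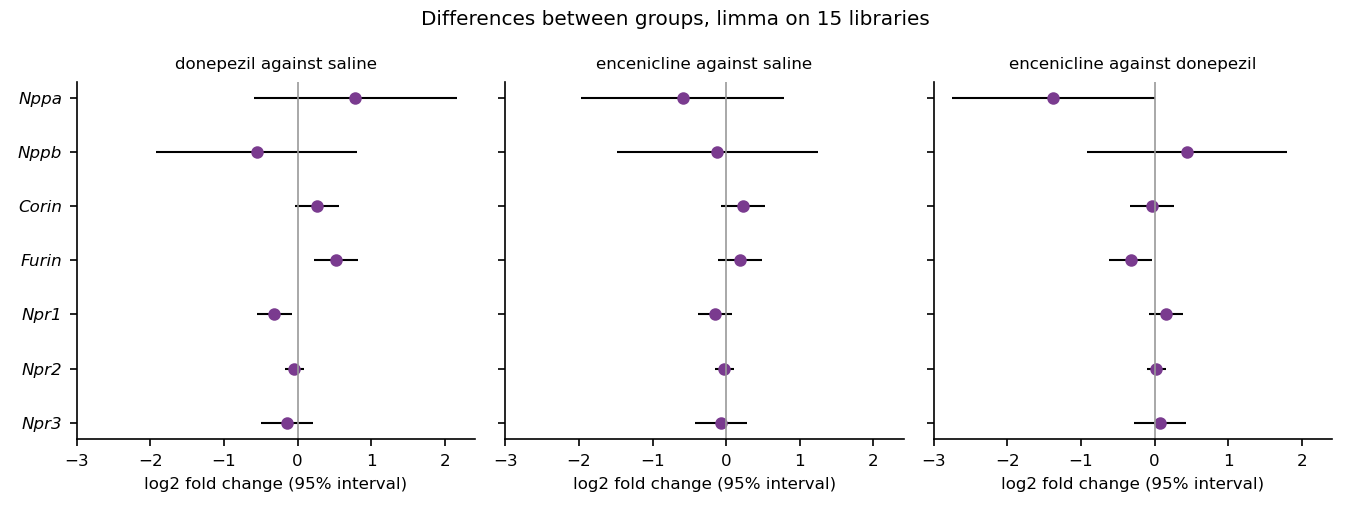
Log2 fold change (horizontal axis) with its 95% confidence interval for the 7 genes tested, in each of the 3 comparisons. The intervals of Nppa and Nppb are the widest, and those of Furin (0.22 to 0.82) and Npr1 (-0.55 to -0.08) in donepezil against saline and of Furin (-0.62 to -0.03) in encenicline against donepezil lie on one side of 0.

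Per length of gene, the order of mean levels over the 15 libraries was Nppb (219.9 ± 142 FPKM), Nppa (145 ± 206), Corin (31.6 ± 5.45), Furin (17.6 ± 3.95), Npr2 (13.8 ± 0.738), Npr1 (7.66 ± 1.25), Npr3 (2.24 ± 0.497) and Nppc (0.0392 ± 0.0566, SD, n = 15 each). Nppb was above Nppa in 13 of 15 libraries, with a log2 ratio of 0.92 ± 1.16 (SD, n = 15), while the ranges of their levels overlapped. The ranges of Furin and Npr2 also overlapped. Corin was above Furin in every library, by a ratio of 1.34 to 2.37, and Npr2 above Npr1 by 1.42 to 2.27. The highest Npr3 library (2.96 FPKM) lay below the lowest Npr1 library (6.27 FPKM).

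The spread within groups set the peptides apart from the rest of the system. The standard deviation of log2(FPKM + 0.5) within groups was 1.16 for Nppa and 1.14 for Nppb, and the median over all genes tested was 0.18. Of the 13396 genes tested, 47 varied more than Nppa and 53 more than Nppb. Among the 3540 genes averaging 10 FPKM or more, 6 and 7 did. The values of Npr1 (0.18), Corin (0.24), Furin (0.24) and Npr3 (0.28) lay nearer the middle, and that of Npr2 (0.077) was lower than 13187 of 13396 genes. Without an unoperated heart in the table, how these levels relate to those of an unloaded ventricle was not tested.

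Most genes beside the 2 peptide genes on the chromosome did not share their spread. Within 100 kb of them the table lists 14 genes, of which 9 were tested. Mfn2, a mitochondrial fusion gene, had a highest level 1.49 times its lowest over the 15 libraries. The same ratio was 1.37 for Plod1, a collagen-modifying enzyme, 1.21 for 2510039O18Rik, 1.45 for Clcn6, a chloride transporter on the other strand whose nearer end lies 3.54 kb from the start of Nppa, and 1.56 for Agtrap, which binds the angiotensin receptor. For Nppb it was 21.5 and for Nppa 29.3. The pseudogene Chchd2-ps, at a median of 0.584 FPKM, also scattered, with a standard deviation within groups of 0.76. None of the 7 neighbours tested passed in the 3 comparisons by limma (0 of 7 each, smallest Benjamini-Hochberg adjusted p = 0.361). Nppa and Nppb did not pass either. Over all genes, 2.12% passed in donepezil against saline, 0% in encenicline against saline and 0.933% in encenicline against donepezil.

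**Figure D3:**
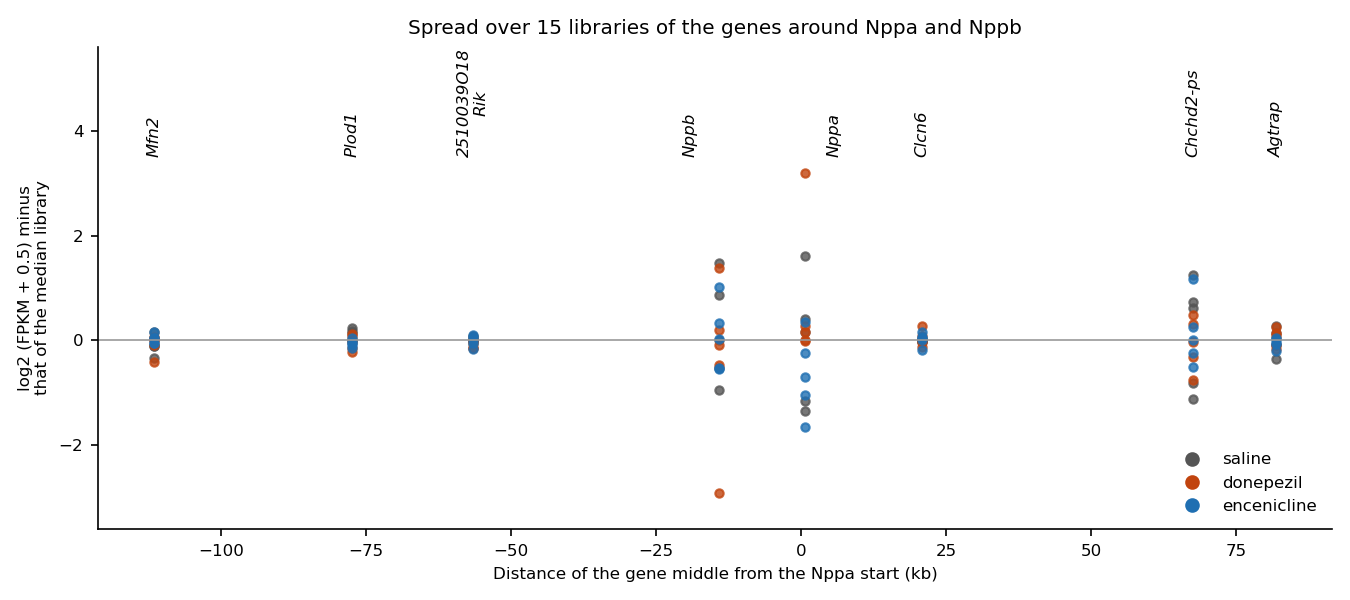
Spread of 8 of the 9 genes tested within 100 kb of Nppa or Nppb, these 2 included: distance of each gene's middle from the Nppa start in kb (horizontal axis) against the log2(FPKM + 0.5) of each library minus that of the median library (vertical axis), with points coloured by group. Nppb and Nppa spread widely, Chchd2-ps (median 0.584 FPKM) spreads less, and the other genes stay near 0.

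Libraries high in one peptide tended to be high in the other within groups. After centring each gene on its group, the correlation of Nppa with Nppb over the 15 libraries was r = 0.70 (permutation p = 0.0263 within groups, two-sided, adjusted p = 0.111 over 21 pairs; Spearman's rho = 0.67, permutation p = 0.0200, adjusted p = 0.14). It did not pass the adjustment. Without saline 3 and donepezil 4, the 2 libraries farthest from the median of Nppa, r was 0.46. Part of the strength of the relation came from these libraries. Without donepezil 2 it was 0.81 (permutation adjusted p = 0.0304), and without donepezil 4 it was 0.57. In each group the library highest in Nppa, namely saline 3, donepezil 4 and encenicline 4, was also the highest in Nppb.

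Corin ran opposite to the peptides. Its correlation with Nppb within groups was r = -0.82 (permutation p = 0.00034, two-sided, adjusted p = 0.00714 over 21 pairs; rho = -0.83, permutation p = 0.00072, adjusted p = 0.0151). Without donepezil 2 and donepezil 4, the libraries farthest from the median of Nppb, r was -0.83. In each group the library with the most Nppb, again saline 3, donepezil 4 and encenicline 4, had the least Corin (21.6, 25.5 and 25.2 FPKM). The relation passed with each single library left out (r from -0.89 to -0.75) and weakened to -0.54 when FPKM were rescaled to an equal sum (TPM; permutation adjusted p = 0.0414). Corin against Nppa gave r = -0.78 (permutation p = 0.00309, adjusted p = 0.0324; rho = -0.60, permutation p = 0.0342, adjusted p = 0.179), and r = -0.55 without saline 3 and donepezil 4. That pair did not pass without donepezil 4 (r = -0.68, permutation adjusted p = 0.168), encenicline 4 (-0.77, 0.119), saline 3 (-0.72, 0.0747), saline 2 (-0.75, 0.0665) or saline 4 (-0.78, 0.0564), nor with TPM (-0.43, 0.2004).

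Among the other 18 pairs 0 passed the adjustment by Pearson or Spearman permutation. Corin with Furin gave r = 0.63 (permutation p = 0.0238, adjusted p = 0.111) and Nppb with Furin r = -0.58 (permutation p = 0.0215, adjusted p = 0.111). Both pairs passed without saline 3, at r = 0.78 and -0.67 (permutation adjusted p = 0.0345 each). Receptor against peptide, r ran from -0.35 to 0.24, and these values depended on the scaling. With TPM, Nppa with Npr2 gave r = 0.70 (permutation adjusted p = 0.0775) and Nppb with Npr2 0.55 (0.255). Nppa with Npr1 changed sign to 0.18 (0.657). Scaled without mitochondrially encoded genes, Nppa with Npr2 gave 0.61 (permutation adjusted p = 0.0863). Among 10220 protein-coding genes averaging 1 FPKM or more, Corin was the 49th most negative in its correlation with Nppb and the 229th with Nppa, so such a relation was not particular to Corin.

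**Figure D4:**
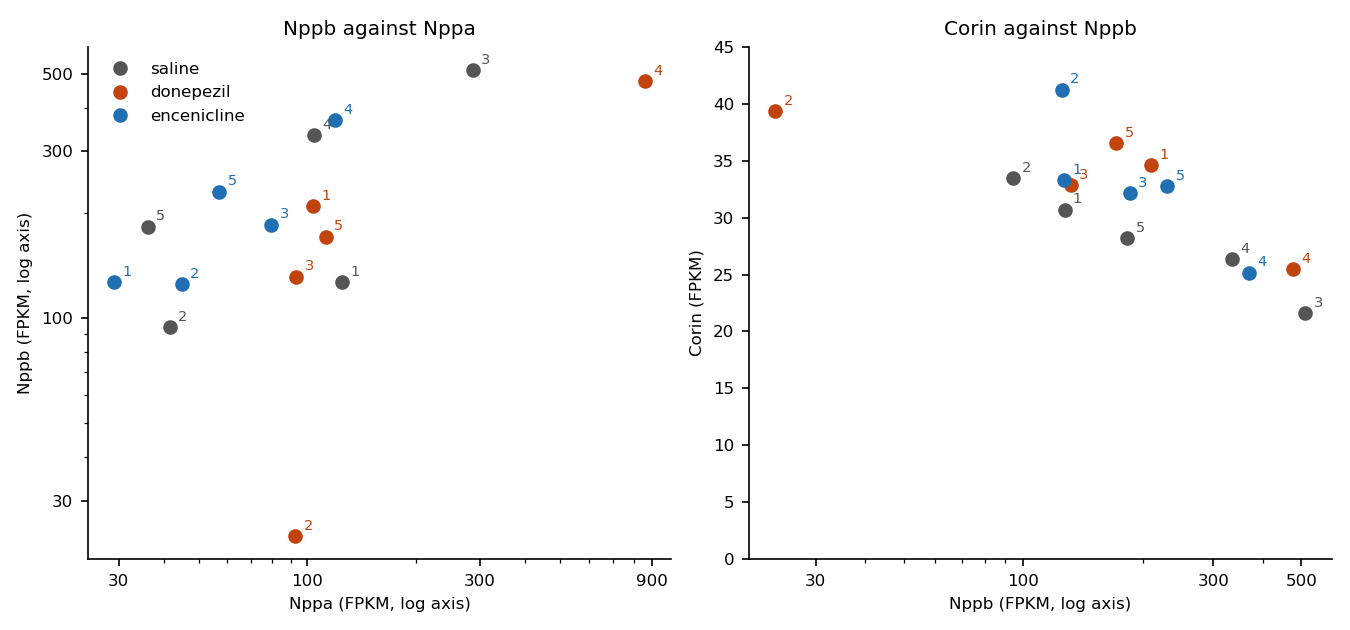
Left, Nppb against Nppa, and right, Corin against Nppb, in FPKM for each of the 15 libraries, coloured by group and marked with the replicate number. The horizontal axes and the left vertical axis are logarithmic. Donepezil 4 and saline 3 lie at the high end of both peptides and at low Corin, and donepezil 2 is low in Nppb (23.8 FPKM) at an ordinary Nppa.

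Among the genes whose pattern over the 15 group-centred libraries was most like Nppa were Timp1, an inhibitor of matrix proteases (r = 0.97), the matricellular gene Thbs4 (0.97), Fstl3, which binds activin (0.96), the cartilage matrix gene Cilp (0.95), Ltbp2, a matrix protein (0.95), Enah, an actin regulator (0.95), and periostin (Postn, 0.94). Without donepezil 4, which was the highest library for all 7 of these, r was 0.90 to 0.95. Timp1 stood at 0.741 to 27.6 FPKM and Postn at 3.12 to 155 FPKM. The genes most like Nppb were others: Cyr61, a matricellular gene (0.97), Gas7 (0.91), Acsl5, a fatty acid-activating enzyme (0.90), Rab3il1 (0.90), the DNA damage kinase gene Chek2 (0.90), the homeobox gene Meox1 (0.90), Papd4 (0.89) and the kinase gene Syk (0.87). Without donepezil 4 these were 0.84 to 0.96, and Cyr61 stood at 14.6 to 59.5 FPKM. Nppa itself came 277th in the order of likeness to Nppb, and Nppb 546th in that of Nppa, of 10220 genes. The libraries share their depth and cell makeup, and the fibroblast and macrophage marker sums above were highest in donepezil 4; their part in these correlations was not tested. Summed over each list, fibroblast markers (6 of 6 tested) stood at 188 to 276 FPKM with saline, 185 to 510.1 with donepezil and 175 to 226 with encenicline, and macrophage markers (6 of 6 tested) at 91.3 to 139.9, 77.9 to 182 and 80.9 to 122 FPKM.

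**Figure D5:**
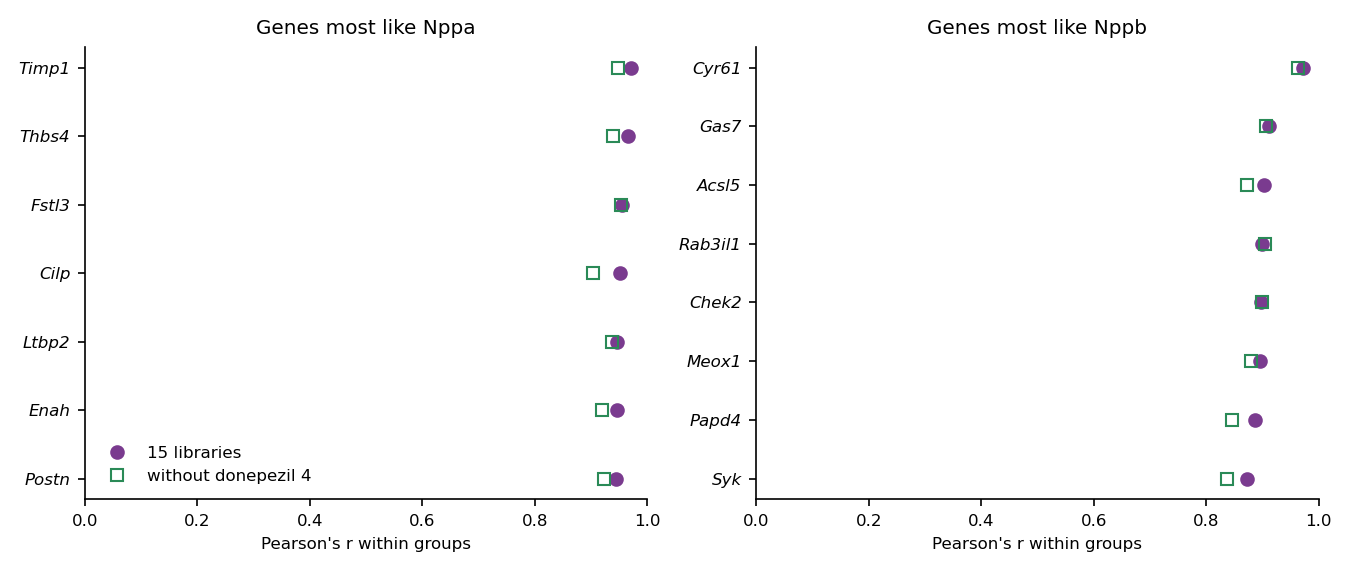
Pearson's r within groups (horizontal axis) of 7 genes most like Nppa, left, and the 8 most like Nppb, right, over 15 libraries (filled circles) and without donepezil 4 (open squares). The lowest value is 0.84, for Syk without donepezil 4.

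For the other genes the 5 most alike were led by Shank3 for Npr1 (r = 0.92), Grik5 for Npr2 (0.86), Ipo11 for Npr3 (0.83), Hdlbp, an RNA-binding protein, for Corin (0.97) and Ube4a, a ubiquitin ligase, for Furin (0.88). Of the markers of stretched or loaded heart muscle, Ankrd1 came 15th in likeness to Nppb (r = 0.85) and 52nd to Nppa (0.89), and Acta1, the skeletal actin re-expressed under load, came 234th and 188th (0.72 and 0.83). Myh7 had r = 0.50 with Nppb and 0.65 with Nppa. Of the 19 genes of the load list compared, 16 had a positive r with Nppa (median 0.82) and 15 with Nppb (median 0.55). In the order of all 10220 genes from the most positive, r near 0 came at place 4505 with Nppa (Npr3, 0.0021). With Nppb it came at place 4698 (Xirp1, -0.0061). The list was chosen with earlier results of these data known. Adm (-0.62 with Nppa and -0.32 with Nppb), Fhl2 (-0.26 and -0.41) and Csrp3 (-0.29 and -0.071) ran the other way, and Actc1 (0.11 and 0.19), Xirp1 (0.090 and -0.0061) and Edn1 (0.033 and 0.28) were weakly related. Of the atrial list, 3 of the 10 genes compared had a positive r with Nppa and 7 a negative one. Dkk3 came 12th in likeness to Nppa (0.93) and Pam 86th (0.88), while Kcnj3 and Kcnj5, subunits of the acetylcholine-gated potassium channel, ran the other way (both -0.85). Negative values were not particular to the atrial list. All 7 ventricular genes compared had a negative r with Nppa (median -0.59), the lowest being Kcnj2 (-0.89). The summed level of the 14 atrial markers was 102 to 133 FPKM with saline, 117 to 149 with donepezil and 113 to 124 with encenicline. Its highest library was donepezil 4, which was also the highest for Pam (94.9 FPKM), Dkk3 (14.0), Myl4 (0.746) and Bmp10 (0.0257), while Sln was listed at 0 there and Kcnj3 (2.50) and Kcnj5 (4.18) were at their lowest. The part of atrial transcripts in the Nppa levels was not tested.

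Genes of cyclic GMP signalling gave no call. Of 23 listed, 16 were tested, and 0 rose and 0 fell in each comparison by limma. Over all genes, 2.12% passed in donepezil against saline, 0% in encenicline against saline and 0.933% in encenicline against donepezil. In the same order, the medians of the 16 were 0.04, 0.02 and -0.03, beside -0.0016, 0.0043 and 0.0034 over all genes. Vasp, a substrate of the cyclic GMP-dependent kinase, was at -0.23 in donepezil against saline (limma with Benjamini-Hochberg adjusted p = 0.314). Rgs2, a regulator of G protein signalling, was at 0.50 (adjusted p = 0.501). In encenicline against donepezil, phospholamban (Pln), which restrains the calcium pump, was at 0.39 (limma with Benjamini-Hochberg adjusted p = 0.328).

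Among 19 other ligands, proteases and inhibitors of the list, 11 were tested. The medians of the list were -0.10, -0.07 and 0.01 in the same order of comparisons. Pcsk6, a convertase that activates corin, was at -0.30 against saline with donepezil and at -0.26 with encenicline (limma with Benjamini-Hochberg adjusted p = 0.189 and 0.525). Mme, which encodes the peptide-degrading enzyme neprilysin, was at 0.34 in encenicline against donepezil (adjusted p = 0.250 in limma), at means of 0.939 and 0.623 FPKM.

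Of 26 transcription factors and cofactors tied to Nppa and Nppb, 25 were tested, and 0 passed in each comparison by limma, with medians of -0.07, 0.03 and 0.11. In the same order, 2.12%, 0% and 0.933% of all genes passed, with medians of -0.0016, 0.0043 and 0.0034. In donepezil against saline, Jarid2, a chromatin factor, was at -0.29 and Gata4 at -0.26 (limma with Benjamini-Hochberg adjusted p = 0.116 and 0.273). In encenicline against donepezil, Gata4 was at 0.34 and Nkx2-5 at 0.37 (adjusted p = 0.183 and 0.235 in limma), and Hdac9, a deacetylase that represses MEF2, was at 0.54 with all 5 encenicline libraries above the donepezil libraries (adjusted p = 0.0507 in limma). In that comparison 2% of all genes were higher without overlap. Hdac9 passed in 6 of 28 alternatives, of which 2 left out 1 library, saline 3 or donepezil 3. Tbx5 was at 0.33 in encenicline against saline (adjusted p = 0.514 in limma).

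Of 22 further genes of the load response, 20 were tested. In donepezil against saline 0 passed (2.12% of all genes did), 12 were on the higher side (49.6% of all genes were) and the median was 0.16. In encenicline against saline 0 passed (0% of all genes did), 18 were on the lower side (48.8% of all genes were) and the median was -0.17. In encenicline against donepezil 1 rose, adrenomedullin (Adm), and 0 fell (0.44% and 0.493% of all genes did), 16 were on the lower side (49.2% of all genes were) and the median was -0.34. Genes of this list varied together within groups (16 of 19 compared had a positive r with Nppa, median 0.82). Over all genes, r near 0 with Nppa came at place 4505 of 10220. Since the genes of the list varied together, the counts of sides are not counts of separate observations. Adm, a vasodilator peptide gene, stood at 7.05 ± 0.784 against 4.78 ± 0.45 FPKM (SD, n = 5 each; a log2 change of 0.51 with SE 0.11 and a Benjamini-Hochberg adjusted p of 0.0368 in limma). That call held in 15 of 29 alternatives. It ended when any single donepezil library or encenicline 1, 2, 4 or 5 was left out. It also ended with no filter on low values (limma with Benjamini-Hochberg adjusted p = 0.0917), TPM (0.104), voom on recovered reads (0.0665), both libraries of disputed label left out (0.0994) and groups by the treatment field (0.368), at log2 fold changes of 0.43 to 0.58 over the alternatives. Fhl2, a sarcomere-associated cofactor, was at -0.50 in donepezil against saline (limma with Benjamini-Hochberg adjusted p = 0.0807). Its groups did not overlap, as for 1.79% of all genes on the lower side, and it passed in 5 of 29 alternatives. Ctgf, a matricellular gene, was at 1.03 and -1.16 in donepezil against saline and encenicline against donepezil (adjusted p = 0.243 and 0.219 in limma), and Acta1 at -1.20 in encenicline against saline (adjusted p = 0.653 in limma).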

How the data were processed

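RNA was sequenced in 15 mouse heart libraries, 5 per group. The deposited table gives FPKM per gene, with gene lengths and coordinates. Per the submitters' processing notes, the tools named are HISAT and also featureCounts (1.5.0-p3) and DESeq (1.8.3), and the build is GRCm38; role, order and strand setting are not given in the sources used here. Library sizes are the authors'; read totals were recovered as whole multiples of FPKM times length (within 0.05 reads).

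The test took 13396 genes that reached 0.5 FPKM in 5 or more libraries and ran on log2(FPKM + 0.5), so changes of low genes are understated. A limma fit (3.58.1, R 4.3.3) with a mean-dependent variance prior used all 15 libraries, two-sided, called at a Benjamini-Hochberg adjusted p under 0.05. Correlations used group-centred values and 100000 permutations within groups (Python 3.11.15, numpy 2.4.6). Both steps were checked on simulated data. The 8 genes and all lists were chosen with earlier results of these data known. Named genes are the 8 and, from among these, list members that passed or were among the 4 of smallest p, the 8 or 5 most alike, and genes within 100 kb of Nppa or Nppb. Genes placed by likeness from the marker and load lists were chosen after their values were seen. Alternatives were pseudocounts, filters, scalings, library weights with robust variances, voom on recovered reads, label alternatives, a replicate block and each library left out. Unmapped sample columns numbered 0. Results on some genes of the lists and of these rules are not reported here.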

Additional observations from a re-analysis of the deposited data

Results flagged for a closer look

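Nppa in donepezil 4 stood at 857 FPKM, and its distance from the next donepezil library was 0.974 of the range of the group, above Dixon's critical value of 0.71 for 5 libraries. It was the only one of 21 groups of values (7 genes in 3 groups) so marked, and chance marks about 1 group in 20. In the same library Nppb stood at 477 FPKM and Corin at 25.5 FPKM. The sums of the atrial (149 FPKM, next 133), fibroblast (510.1 FPKM) and macrophage markers (182 FPKM) were highest there. Col1a1 alone gave 229 FPKM of the fibroblast sum. Pam alone gave 94.9 FPKM of the atrial sum, and the atrial markers Kcnj3 (2.50 FPKM) and Kcnj5 (4.18 FPKM) were at their lowest there. The sums of the ventricular (3586 FPKM), endothelial (188 FPKM), mural (236 FPKM) and conduction system markers (1.56 FPKM) and the share of mitochondrially encoded reads (17.4%) were lowest there, and their part in the Nppa value was not tested. Without it the Nppa difference between donepezil and saline was 0.17 (log2).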

How the results depend on the processing

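Over 29 alternatives, the 21 log2 fold changes of the 7 genes gave 609 values, of which 580 kept their direction and their side of the threshold, 25 changed sign without passing and 4 passed. The number of genes called in donepezil against saline was 1 (Furin) with library weights and robust variances together (log2 0.52), with the replicate block (log2 0.52, limma with Benjamini-Hochberg adjusted p = 0.0184), without saline 1 (0.60) and without encenicline 4 (0.52), and 0 otherwise; with single libraries left out it ran from 0 to 1 and the log2 fold change of Furin from 0.44 to 0.60. The labels do not state whether a replicate number links libraries of different groups. Same-numbered libraries correlated at -0.087 to 0.20 in their deviations (median 0.038), over 0.1 in 4 of 15 pairs. Other-numbered libraries correlated at -0.30 to 0.42 (median -0.020), over 0.1 in 8 of 60 pairs.

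Without donepezil 1 and encenicline 1, the changes of Nppb and Npr2 in encenicline against saline were 0.027 and 0.00096, and that of Npr3 in encenicline against donepezil was -0.073. With groups by the treatment field, Npr3 was at 0.073 in donepezil against saline, Nppb and Npr2 at 0.024 and 0.019 in encenicline against saline, and Npr3 at -0.12 in encenicline against donepezil. Npr2 in encenicline against donepezil was -0.014 scaled without mitochondrially encoded genes, -0.061 with TPM, -0.0013 with quantiles and -0.027 with voom. TPM moved the median of all genes by -0.13 in encenicline against saline.

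With single libraries left out, Nppb ran from -0.998 to 0.077 in donepezil against saline, -0.40 to 0.21 in encenicline against saline and -0.20 to 0.88 in encenicline against donepezil. In encenicline against saline Npr2 ran from -0.061 to 0.00096 and Npr3 from -0.19 to 0.0063. In encenicline against donepezil Npr2 ran from -0.013 to 0.049, Npr3 from -0.013 to 0.15 and Corin from -0.13 to 0.053. The correlation of Nppa with Nppb ran from 0.57 to 0.81 and that of Nppa with Corin from -0.83 to -0.68, with -0.43 under TPM. The alternatives for the Corin correlations were chosen after seeing the data. The cause of these changes was not tested. With 5 libraries per group and a within-group spread above 1 (log2), only large differences of Nppa and Nppb could have passed.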
